A study of Mus musculus with 20 samples.

Results

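Immunoglobulin variable (V) gene segments encode most of the antigen-binding domain of an antibody chain, and 156 of them were followed here through 20 RNA-seq libraries of mouse pancreatic tumours. They are the heavy chain (Ighv), kappa (Igkv) and lambda (Iglv) segments of the authors' raw count table that reached at least 1000 counts summed over the 20 libraries. That rule kept 156 of 350 V segments among 46983 genes: 76 of 185 Ighv, 77 of 162 Igkv and 3 of 3 Iglv segments. The summed counts chose the members, so how abundant they were is a description. Ighv1-84 (1006 counts), Igkv8-18 (1065 counts) and Ighv1-47 (1083 counts) lay just inside the threshold, and Igkv4-60 (980 counts), Ighv2-6-8 (954 counts) and Igkv4-54 (884 counts) just outside it. Of these, Igkv4-60 had 924 of its counts in 1 library, WT sorted 3, and Ighv2-6-8 had 799 in WT sorted 4.

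The tumours were grown from cultured KPC mouse pancreatic cancer cells placed in the pancreas of untreated C57BL/6 mice, and were taken at 2 weeks. Hosts were wild type (WT) or IL33-/-, and 5 libraries were labelled for each of 4 groups: leukocytes of WT hosts and of IL33-/- hosts selected on CD45+ magnetic beads ("sorted"), and bulk tumour of each host. The labels do not describe the deletion, do not tie a library to a mouse, and do not tie sorted to bulk libraries. They do not say whether the injected cells carry Il33. Il33 itself was counted in every group, at 14.3 to 25.7 CPM (counts scaled to library size) in sorted and 37.0 to 56.3 CPM in bulk libraries labelled IL33KO. The same transcript stood at 5.77 to 20.6 and 53.7 to 66.7 CPM in the WT libraries, so its level does not check the host labels.

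A B cell joins 1 V segment to shorter D and J segments (heavy chain) or to a J segment (kappa and lambda), and the joined exon is spliced to a constant gene. Daughter cells inherit the join, so a clone of B cells or plasma cells reads out the same V segment, and plasma cells carry far more antibody message per cell than resting B cells. The choice of constant gene sets the isotype: Ighm gives IgM, the Ighg genes give IgG and Igha gives IgA.

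All 156 were annotated as V genes in GENCODE M21 (mm10, GRCm38). The 76 heavy chain segments lay on the minus strand of chr12:113588267-116000461, the 77 kappa segments on chr6:67555497-70704177 with 31 on the plus and 46 on the minus strand, and the 3 lambda segments on the minus strand of chr16:19085017-19260859. Their transcripts were 338 to 501 bases long (median 360.5). The germline sequences below belong to the segments that led a library or a locus. Each is the last 120 coding bases of the GENCODE transcript, 5′ to 3′, and the capitals mark the codon of the conserved cysteine before the junction, where a rearranged chain goes on into its D or J segment. Ighv8-8 (chr12:115294062-115294181) and Ighv8-12 (chr12:115647945-115648064) are the family 8 members, and Ighv1-64 (chr12:115507545-115507664) and Ighv1-82 (chr12:115952538-115952657) belong to the large family 1, all on the minus strand. Igkv3-2 (chr6:70698948-70699067) and Igkv3-5 (chr6:70663776-70663895) are plus strand kappa segments, and Iglv1 (chr16:19085017-19085136, minus strand) is the main lambda segment.
Ighv8-8: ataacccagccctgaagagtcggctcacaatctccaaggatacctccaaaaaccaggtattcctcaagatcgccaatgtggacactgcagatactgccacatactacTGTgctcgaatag
Ighv8-12: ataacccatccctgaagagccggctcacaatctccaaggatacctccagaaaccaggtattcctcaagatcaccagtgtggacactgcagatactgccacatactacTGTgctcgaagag
Ighv1-64: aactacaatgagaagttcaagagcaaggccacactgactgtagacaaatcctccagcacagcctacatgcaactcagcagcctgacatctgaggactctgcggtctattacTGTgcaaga
Ighv1-82: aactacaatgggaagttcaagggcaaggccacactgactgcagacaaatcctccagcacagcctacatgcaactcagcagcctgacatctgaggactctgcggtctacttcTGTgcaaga
Igkv3-2: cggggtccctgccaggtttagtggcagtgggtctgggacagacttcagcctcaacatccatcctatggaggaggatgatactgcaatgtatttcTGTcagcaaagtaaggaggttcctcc
Igkv3-5: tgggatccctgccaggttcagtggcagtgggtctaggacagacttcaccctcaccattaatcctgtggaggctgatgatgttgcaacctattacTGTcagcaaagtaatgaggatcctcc
Iglv1: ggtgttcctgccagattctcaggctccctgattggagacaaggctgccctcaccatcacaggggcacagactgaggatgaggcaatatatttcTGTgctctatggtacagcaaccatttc

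Some segments are close copies, which bears on how well reads can be told apart. Coding sequences were 94.4% identical between Ighv8-8 and Ighv8-12, 91.1% between Igkv3-2 and Igkv3-5, 85.2% between Ighv1-64 and Ighv1-82, and 96.9% between Iglv1 and Iglv2. The same 120-base end of Iglv2 (chr16:19260401-19260520, minus strand) is shown with capitals at the 4 bases that differ from Iglv1.
Iglv2: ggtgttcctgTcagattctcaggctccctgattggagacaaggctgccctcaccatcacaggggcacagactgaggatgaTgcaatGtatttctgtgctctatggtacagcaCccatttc
Of the 156 transcripts, 23 shared no stretch of 50 bases with any other immunoglobulin transcript and 22 shared over 50% of theirs (median 24.1%). Reads that fit several segments equally well may be missing from the counts or be split between copies, so single-segment counts within such families are uncertain. Somatic mutation, which alters V sequences in germinal centres, can also move reads between close copies, and its part was not tested.

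Libraries held 51.3 to 81.0 M gene counts (M, mega), and 3 counts corresponded to 0.0327 to 0.0687 CPM. CPM here were scaled to library sizes after TMM (trimmed mean of M values) normalization. V segments took 34833 to 1026796 counts in a sorted library and 1831 to 20297 in a bulk library, so a V share is known less precisely in bulk. For the leading segments the 95% Wilson interval of a share reached at most ±0.571 percentage points in sorted and ±3.27 in bulk libraries, counting error only.

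A set of 3 bulk libraries stood apart. WT bulk 1, 2 and 4 had V segment counts that differed from each other by a chi-square per degree of freedom of 1.15 to 1.60, where counting noise alone gives values near 1. The other 42 pairs of bulk libraries gave 8.96 to 92.1. Ighv1-22, for example, held 9.37%, 10.4% and 9.91% of heavy V counts in these libraries. T cell receptor segments gave 1.11 to 2.29 among the 3 libraries against 3.64 to 23.1 in other pairs, and antibody constant genes 2.77 to 3.39 against 32.4 to 2260. Over all genes the same pairs differed by 18.3 to 113, against 34.7 to 466 in other pairs, so the libraries are not copies of one count column. The statistic grows with the number of counts, so values for V segments and for all genes are not on one scale. The labels do not say whether they share an animal, and the main bulk values are therefore also given with the 3 libraries summed into 1.

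**Figure D1:**
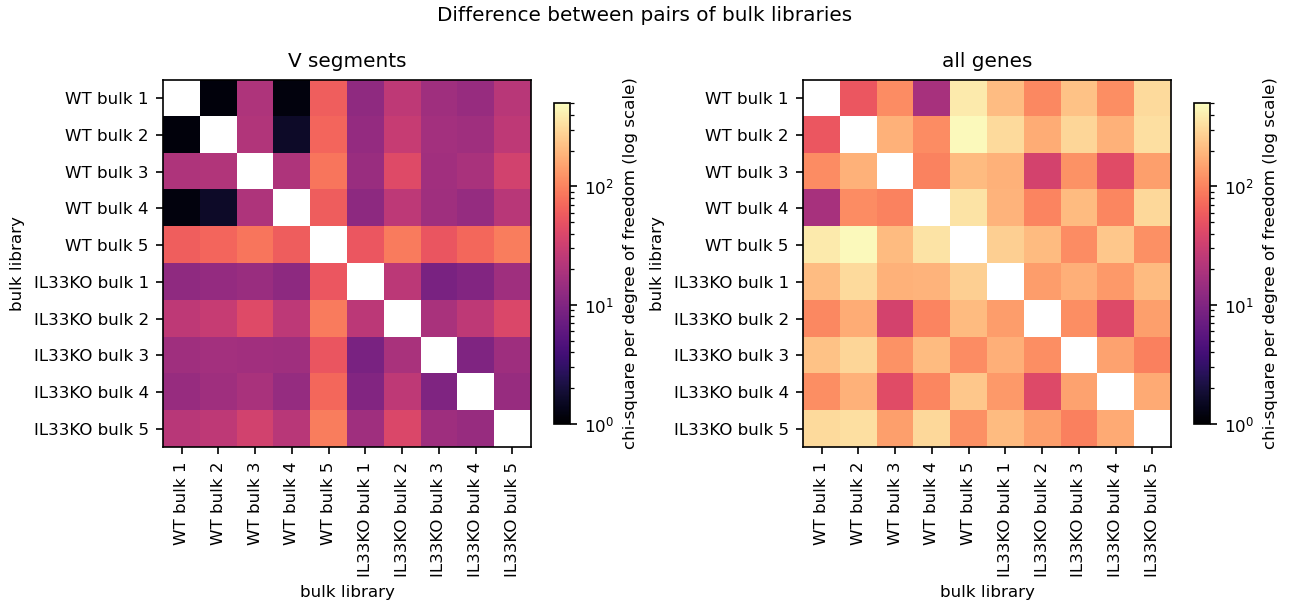
Chi-square per degree of freedom between each pair of the 10 bulk libraries, for V segments (left) and all genes (right); both axes list the libraries and the colour scale is logarithmic. The dark cells on the left are the pairs among WT bulk 1, 2 and 4 (1.15 to 1.60, against 8.96 to 92.1 elsewhere). On the right these pairs lie at 18.3 to 113, against 34.7 to 466 elsewhere.

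The summed V segment level varied far more within groups than between host genotypes. In sorted leukocytes it was 4397, 11860, 19470, 8012 and 1817 CPM in WT libraries 1 to 5. In sorted libraries labelled IL33KO it was 4995, 18940, 2529, 707 and 1369 CPM. WT sorted 3 and IL33KO sorted 2 were the highest of each group, and the groups overlapped over most of their range. The group values were 9110 ± 6920 CPM in WT and 5710 ± 7570 CPM in IL33KO (SD, n = 5 each), and the highest sorted library exceeded the lowest 27.5-fold.

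In bulk tumour the summed level was 23.97, 28.89, 127.1, 25.16 and 262.4 CPM in WT libraries 1 to 5. It was 36.78, 108.4, 30.94, 71.58 and 230.3 CPM in libraries labelled IL33KO. WT bulk 1, 2 and 4 were the 3 lowest, library 5 was the highest in each genotype, and the means were close (93.5 ± 104 and 95.6 ± 81.4 CPM, SD, n = 5 each). With WT bulk 1, 2 and 4 summed, the WT mean was 138 CPM. In bulk RNA, fewer antibody-making cells and less antibody RNA per cell cannot be told apart.

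**Figure D2:**
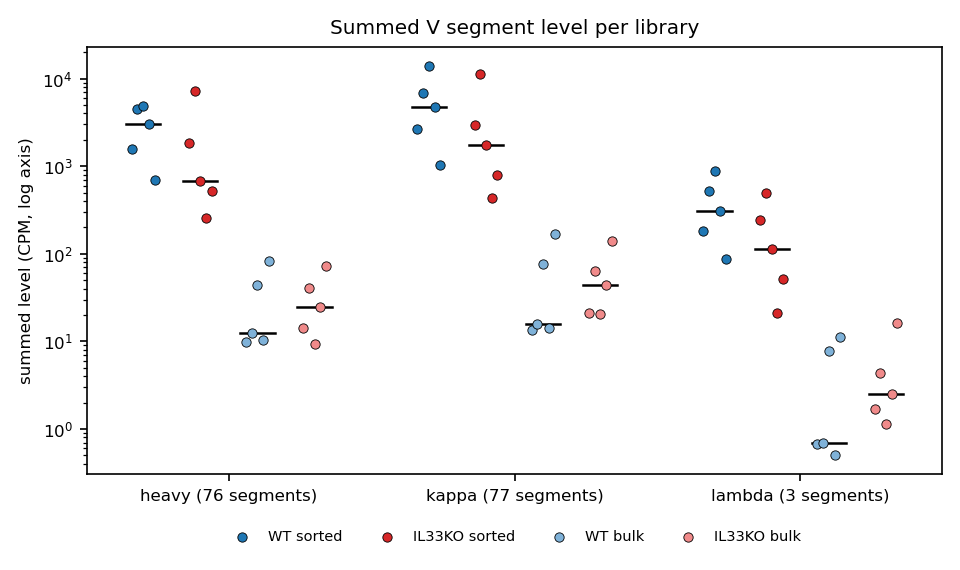
Summed level of the heavy, kappa and lambda V segments in CPM on a log axis; each point is a library, colours are the 4 groups and the bar is the group median. Heavy segments lie between 254 and 7140 CPM in sorted and between 9.44 and 83.5 CPM in bulk libraries, and the genotypes overlap for each chain in both.

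A few libraries supplied most of the V reads. The 10 sorted libraries held 98.0% of all member counts, and WT sorted 3 and IL33KO sorted 2 alone held 52.0%. A median member drew 36.8% of its counts from its top library (range 15.3 to 97.8%), and 37 of the 156 drew over 50% from 1 library. That top library was IL33KO sorted 2 for 54 members, WT sorted 3 for 38 and WT sorted 2 for 31. Even so, 153 members had a count in all 10 sorted libraries and 91 in all 20. The members were chosen by summed counts that came mostly from sorted libraries, so these numbers do not measure how broad the repertoire was. Between 54 and 75 of the 76 heavy segments were counted in a bulk library, against 75 or 76 in a sorted one.

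Usage, the share of a segment among the member counts of its own locus, shows which segments led once the level was set aside. In the heavy chain Ighv8-8 led on average (13.1% over the 20 libraries weighted equally), followed by Ighv14-3 (6.16%), Ighv8-12 (5.78%), Ighv1-82 (4.48%) and Ighv1-64 (4.18%). Among kappa segments Igkv3-2 led with 7.74%, before Igkv10-96 (5.27%), Igkv19-93 (4.64%), Igkv1-110 (4.36%) and Igkv1-117 (4.36%). With counts divided by transcript length, 4 of these 5 heavy and 3 of these 5 kappa segments were still among the top 5, and no share moved by more than 0.6 percentage points.

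Ighv8-8 was first in 12 of the 20 libraries, among them WT bulk 1, 2 and 4, whose V usage was nearly the same. Its share of heavy V counts was 13.3%, 19.0%, 14.5%, 18.2% and 7.84% in WT sorted libraries 1 to 5, and 14.9%, 14.6%, 2.81%, 6.49% and 10.6% in sorted libraries labelled IL33KO. In bulk tumour it was 30.5%, 33.0%, 9.62%, 29.7% and 1.44% in WT and 8.52%, 6.68%, 3.31%, 8.99% and 7.92% in IL33KO libraries. The highest shares fell in WT bulk 1, 2 and 4, with 95% Wilson intervals of 27.3 to 33.8%, 30.0 to 36.2% and 26.6 to 33.1%, and the lowest in WT bulk 5 (1.18 to 1.76%), so the genotypes overlapped. Its near copy Ighv8-12 led in 3 libraries, with 20.4% in WT sorted 5, 12.1% in IL33KO sorted 4 and 12.9% in IL33KO bulk 2.

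Some high shares stood in a single library of a group. Ighv1-82 took 38.7% of heavy V counts in WT bulk 5 (2499 of 6461 counts), where it stood at 32.3 CPM, and 1.1 to 2.03% in the other 4 WT bulk libraries. In the same library Igkv3-5 took 26.0% of kappa V counts at 43.5 CPM. This segment had no count in WT bulk 1 and 2, which allows shares of up to 0.289% and 0.27%. WT bulk 5 also had 8100 CPM of acinar (normal pancreas) markers against 36.6 to 39.8 CPM in the other WT bulk libraries. Its lymph node stroma markers summed to 17.0 CPM against 1.76 to 5.83 CPM in those libraries. The stroma markers were higher still in IL33KO bulk 2 (22.0 CPM) and IL33KO bulk 5 (20.7 CPM). The part of both marker lists in these shares was not tested. Ighv1-64 held 27.3% of heavy V counts in WT sorted 3 against 2.31 to 3.65% in the other WT sorted libraries, and Igkv3-2 held 28.7% of kappa V counts there against 1.7 to 4.64%. Thus 1 heavy and 1 kappa segment led together in each of these libraries. Other kappa segments were also high in WT sorted 3, which held 77.9% of all Igkv5-43 counts and 51.5% of all Igkv19-93 counts. Whether the leading heavy and kappa segments belong to the same cells cannot be read from bulk RNA.

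**Figure D3:**
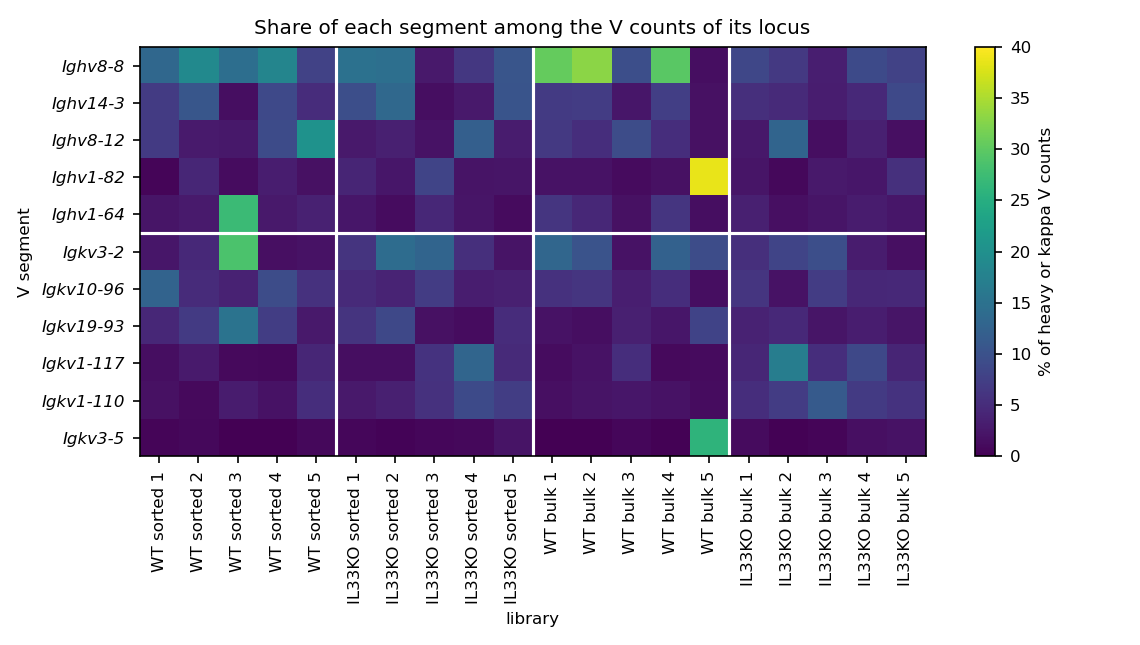
Usage of the leading V segments in each of the 20 libraries, as percent of the member counts of the same locus; rows are segments, columns are libraries by group, and colour gives the share. Ighv8-8 is strong in most libraries, whereas Ighv1-82 (38.7%) and Igkv3-5 (26.0%) stand out in WT bulk 5 and Ighv1-64 (27.3%) and Igkv3-2 (28.7%) in WT sorted 3.

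By family, Ighv1 with 41 members supplied a mean of 49.9, 48.9, 49.5 and 51.8% of heavy V counts in WT sorted, IL33KO sorted, WT bulk and IL33KO bulk. Ighv8 supplied 18.9% from only 2 members, with group means of 22.9, 14.6, 26.5 and 11.5% in the same order. Single bulk libraries ranged from 3.28 to 38.2% in WT and from 4.8 to 19.6% in IL33KO. The lambda locus was led by Iglv1 in every library, with 73.8 to 95.4% of lambda V counts (mean 85.7%), while Iglv2 held 9.05% and Iglv3 5.2% on average. Lambda segments as a whole made up 6.69%, 5.71%, 5.62% and 6.99% of light chain V counts by group. The 96.9% identity of Iglv1 and Iglv2 leaves the split between them uncertain.

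The effective number of segments (the inverse Simpson index, the number of equally used segments that would give the same concentration) puts these shares into 1 figure per library. For heavy segments it was 21.3, 15.9, 8.88, 15.0 and 15.6 in WT sorted libraries 1 to 5 and 20.4, 17.7, 34.5, 23.1 and 23.3 in IL33KO sorted libraries. In bulk tumour it was 8.13, 7.21, 27.4, 8.41 and 5.78 in WT and 32.7, 15.0, 34.0, 34.2 and 27.5 in IL33KO libraries. Heavy usage was most concentrated in WT bulk 5, 2, 1 and 4, and the genotypes overlapped in both compartments. The WT bulk mean was 11.4 ± 9.01 (SD, n = 5), and 13.7 ± 11.9 with WT bulk 1, 2 and 4 summed (n = 3). For kappa segments the group values were 18.7 ± 7.27 and 22.9 ± 4.14 in sorted WT and IL33KO, and 19.0 ± 5.67 and 25.7 ± 7.76 in bulk (SD, n = 5 each). The WT bulk value was 18.5 ± 7.92 with the 3 libraries summed.

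Position along the heavy chain locus was looked at after the other values had been seen, so it is given without a test. The constant genes lie at lower chromosome 12 coordinates than the V segments, and the 76 members were split into the 38 nearer to them and the 38 farther away. In sorted leukocytes the nearer segments held 30.0%, 28.9%, 30.1%, 25.7% and 36.0% of heavy V counts in WT libraries and 37.5%, 44.1%, 46.8%, 36.9% and 43.3% in libraries labelled IL33KO. In bulk tumour the shares were 25.2%, 24.4%, 34.6%, 26.5% and 30.9% in WT and 42.4%, 49.8%, 50.5%, 37.4% and 49.8% in IL33KO libraries. Every IL33KO library was above every WT library in each compartment, with means of 30.1 ± 3.74 and 41.7 ± 4.37% (sorted) and 28.3 ± 4.34 and 46.0 ± 5.83% (bulk) (SD, n = 5 each).

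The farther set includes Ighv8-8 and Ighv8-12. Without these, the nearer share was 39.3 ± 6.15% in WT and 48.8 ± 3.59% in IL33KO sorted libraries, and 39.0 ± 4.1% and 52.1 ± 7.31% in bulk; the groups then overlapped (35.3 to 50.2% against 45.3 to 53.9% in sorted libraries, 32.0 to 42.7% against 42.7 to 61.9% in bulk). With WT bulk 1, 2 and 4 summed the bulk difference was 15.7 percentage points instead of 17.6. If sorted and bulk libraries came from the same tumours, the compartments are not independent. Among kappa segments, the 38 nearer to Igkc, the kappa constant gene, held 57.3 ± 4.53% and 50.7 ± 7.98% of kappa V counts in sorted WT and IL33KO libraries, which overlapped, and 65.2 ± 7.48% and 45.3 ± 1.39% in bulk, which did not. With the 3 WT bulk libraries summed the WT value was 63.0 ± 9.63% (n = 3), still without overlap.

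**Figure D4:**
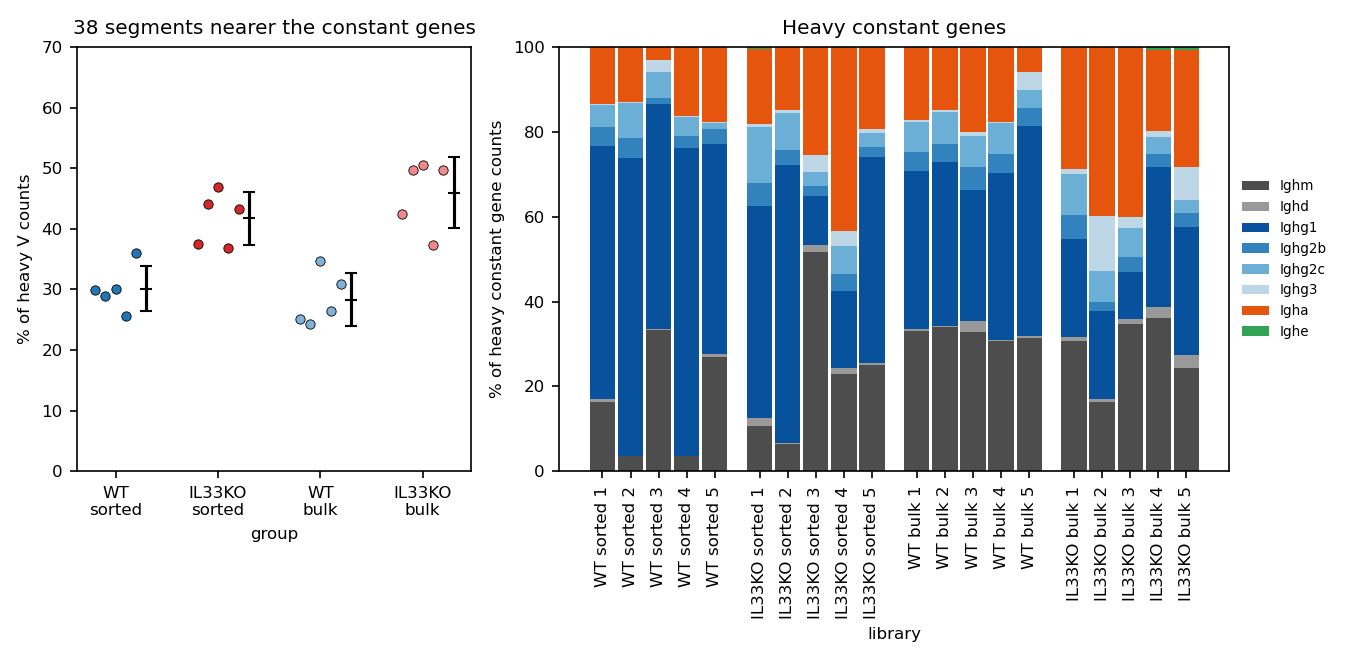
Left, share of heavy V counts from the 38 segments nearer the constant genes, with 1 point per library and the mean ± SD per group; right, share of each isotype gene among heavy constant gene counts, as 1 stacked bar per library. On the left the IL33KO points lie above the WT points in both compartments (36.9 to 46.8% against 25.7 to 36.0% sorted, 37.4 to 50.5% against 24.4 to 34.6% bulk).

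No V segment differed between host genotypes in sorted leukocytes by edgeR's quasi-likelihood test with Benjamini-Hochberg adjustment over all genes. Of 154 members tested, 0 passed an adjusted p of 0.05, where 0.012% of all genes did. At an unadjusted p under 0.05, 9 members passed, against 12.9% of all genes, and DESeq2 called 4 of 137 members, all lower in IL33KO, where it called 4.42% of all genes. The members' median log2 change (IL33KO over WT) was -0.42 with 53 of 154 above 0, while the median of all genes was 0.02. By locus the medians were -0.21 for heavy, -0.63 for kappa and -1.10 for lambda segments.

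The segments with the smallest p in that comparison were lower in libraries labelled IL33KO without passing the adjustment. Igkv4-61 stood at 11.6, 91.6, 4.25, 45.0 and 0.514 CPM in WT sorted libraries and at 1.15, 0.702, 4.35, 0.426 and 1.46 CPM in IL33KO libraries. Its high values came from WT sorted 2, 4 and 1, and the groups overlapped (log2 change -4.23, SE 1.27, edgeR adjusted p = 0.239). Igkv8-21 stood at 162, 116, 60.0, 19.1 and 22.5 CPM in WT and 18.6, 23.0, 14.4, 2.03 and 11.1 CPM in IL33KO (log2 change -2.45, SE 0.76, edgeR adjusted p = 0.255). All but 1 of its IL33KO values were below every WT value. Ighv1-69 stood at 13.0, 12.4, 10.9, 12.7 and 4.69 CPM against 3.81, 7.79, 2.72, 1.87 and 6.7 CPM (log2 change -1.22, SE 0.40, edgeR adjusted p = 0.268), with WT sorted 5 among the IL33KO values. For Ighv8-8 the log2 change was -0.74 (SE 1.18, edgeR adjusted p = 0.836).

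In bulk tumour 0 of the 93 members tested passed, where 0% of all genes did. The other 63 had too few bulk counts to be tested. At an unadjusted p under 0.05, 11 members passed, against 6.36% of all genes, and DESeq2 called 1 of 78 members, Ighv1-81, where it called 0.296% of all genes. The members' median log2 change was 0.61 with 66 of 93 above 0, against 0.01 for all genes. With WT bulk 1, 2 and 4 summed, 0 of 117 members tested passed.

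Ighv1-81, a family 1 segment, had the smallest p. It stood at 0.0648, 0.0423, 0.219, 0.0137 and 0.31 CPM in WT bulk libraries and 0.294, 3.78, 0.359, 0.939 and 2.58 CPM in IL33KO bulk libraries. Only the lowest IL33KO library lay within the WT range (log2 change 3.58, SE 0.91, edgeR adjusted p = 0.724). As a share of heavy V counts it was 0.134 to 0.66% in WT and 2.09 to 9.29% in IL33KO, without overlap. Igkv3-10 stood at 0.0259, 0.0141, 0.258, 0.0962 and 0.0646 CPM against 0.0763, 3.16, 0.266, 0.442 and 0.344 CPM (log2 change 3.18, SE 1.03, edgeR adjusted p = 0.724), with IL33KO bulk 2 far above the rest. Igkv5-48 was on the other side, at 0.661, 1.04, 0.593, 0.921 and 0.22 CPM in WT and 0.174, 0.0558, 0.172, 0.232 and 0.509 CPM in IL33KO (log2 change -1.60, SE 0.54, edgeR adjusted p = 0.724), and WT bulk 5 lay among the IL33KO values.

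In CPM none of the 154 members tested in sorted and of the 93 tested in bulk libraries had WT and IL33KO groups that did not overlap, where 3.7% and 0.655% of genes tested had. As a share of its locus, 1 heavy or kappa member did not overlap in sorted leukocytes, where 0.794% of the Ighv and Igkv segments with a count did not. That was Igkv1-122, at 0.0133 to 0.0507% in WT and 0.0582 to 1.12% in IL33KO. In bulk tumour 9 members were higher and 2 lower without overlap, against 4.76% of the same segments. Igkv1-110, one of the leading kappa segments, was among the higher ones (1.36 to 2.42% in WT, 5.24 to 11.4% in IL33KO), and Ighv1-26 (5.3 to 6.92% against 1.71 to 2.79%) and Igkv12-46 (3.15 to 11.4% against 1.1 to 2.9%) were the lower ones. Summing WT bulk 1, 2 and 4 gave 10 members higher and 3 lower without overlap (8.5%). No member was without overlap in both compartments.

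The genotype difference itself was compared between compartments by the interaction term, and 0 of 154 members passed, where 0% of all genes did. At an unadjusted p under 0.05, 11 members passed, against 11.2% of all genes, and 35 of 154 had an interaction above 0 (median -0.95). Ighv1-81 gave the smallest p: its log2 change was -0.26 in sorted and 3.58 in bulk libraries, and the interaction was -3.84 (SE 1.09, edgeR adjusted p = 0.445). Ighv5-9-1 (-4.47, SE 1.53) and Ighv1-39 (-3.56, SE 1.32) followed with the same adjusted p.

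Sorted libraries carried more V segment RNA than bulk tumour. Since 98.0% of the counts that chose the members came from sorted libraries, this comparison describes them and tests nothing independent of the rule. In WT hosts 151 of the 154 members tested were called higher, where 33.7% of all genes were, with a median log2 difference of 6.68. After WT bulk 1, 2 and 4 were summed, 148 of 156 tested were called. In IL33-/- hosts 150 were called higher, where 31.3% of all genes were, with a median of 5.67. All 154 had positive values in both genotypes. The medians for heavy, kappa and lambda segments were 6.80, 6.66 and 6.38 in WT and 5.85, 5.59 and 4.55 in IL33KO. The CPM of sorted and bulk libraries did not overlap for 139 members (90.3%) in WT, where 50.5% of genes did not, and for 116 (75.3%) in IL33KO, where 48.8% did not.

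Named segments show the size of this gap. Ighv8-8 stood at 54.5 to 864 CPM in WT sorted and 1.2 to 4.18 CPM in WT bulk libraries (log2 difference 7.26, SE 1.27). In IL33KO it stood at 16.5 to 1040 CPM in sorted and 0.313 to 5.73 CPM in bulk libraries (6.85, SE 1.25). Ighv1-81 differed by 7.97 in WT (SE 0.96) and by 4.14 in IL33KO (SE 0.78). Ighv1-47 had 28 to 150 counts per WT sorted library and 2 counts in all 5 WT bulk libraries together, so no fold is given. Ighv7-3 differed by 5.83 (SE 0.71) in WT and 6.43 (SE 0.74) in IL33KO, and Igkv6-15 by 5.67 (SE 0.85) in IL33KO. Iglv1 stood at 64.5 to 796 CPM in WT sorted and 0.467 to 10.4 CPM in WT bulk libraries (6.62, SE 1.28).

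The members not called in WT were Ighv1-36, Ighv2-9 and Igkv3-5. For Igkv3-5 this rested on WT bulk 5: the sorted libraries exceeded bulk by 1.22 on the log2 scale with that library (edgeR adjusted p = 0.482) and by 7.23 without it (edgeR adjusted p = 0.000313). Ighv1-82, the leading heavy segment of the same library, exceeded bulk by 3.50 (edgeR adjusted p = 0.0438), and that call was lost without WT sorted 2, 3 or 4 or WT bulk 1, 2, 3 or 4 (edgeR adjusted p 0.0526 to 0.11) and with WT bulk 1, 2 and 4 summed (2.79, edgeR adjusted p = 0.148). In IL33KO the members not called were Igkv4-61, Igkv8-16, Ighv9-4 and Ighv1-11. Igkv7-33 and Ighv1-37 had too few counts to be tested in either genotype.

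Usage also allows sorted and bulk libraries to be set side by side without their level. Shares were taken as log2 (percent + 0.1), the mean of each segment over the 20 libraries was subtracted, and the remainders were correlated between each of the 10 bulk and 10 sorted libraries (Spearman, across segments, 100 pairs). The correlations ran from -0.341 to 0.511 with a median of -0.0805. Segments of 1 library share their cells, so these values are descriptions. For 10 of 10 bulk libraries the sorted library with the highest value had the same host genotype. Each genotype made up 5 of the 10 sorted libraries. The best match had the same replicate number for 2 of 10. WT bulk 1, 2 and 4 were all nearest to sorted 4, at only 0.055, 0.073 and 0.06. Their V usage was nearly the same, so these are not 3 separate matches. IL33KO bulk 2 was nearest to sorted 4 (0.511), with which it shared high Ighv8-12 (12.9 and 12.1%) and Igkv1-117 (17.0 and 13.0%). IL33KO bulk 4 was nearest to sorted 5 (0.468), IL33KO bulk 3 to sorted 3 (0.461), WT bulk 3 to sorted 1 (0.390) and WT bulk 5 to sorted 3 (0.275). The best values of the other 5 bulk libraries were 0.055 to 0.205. Whether the matching pairs come from the same tumour is not given in the labels.

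**Figure D5:**
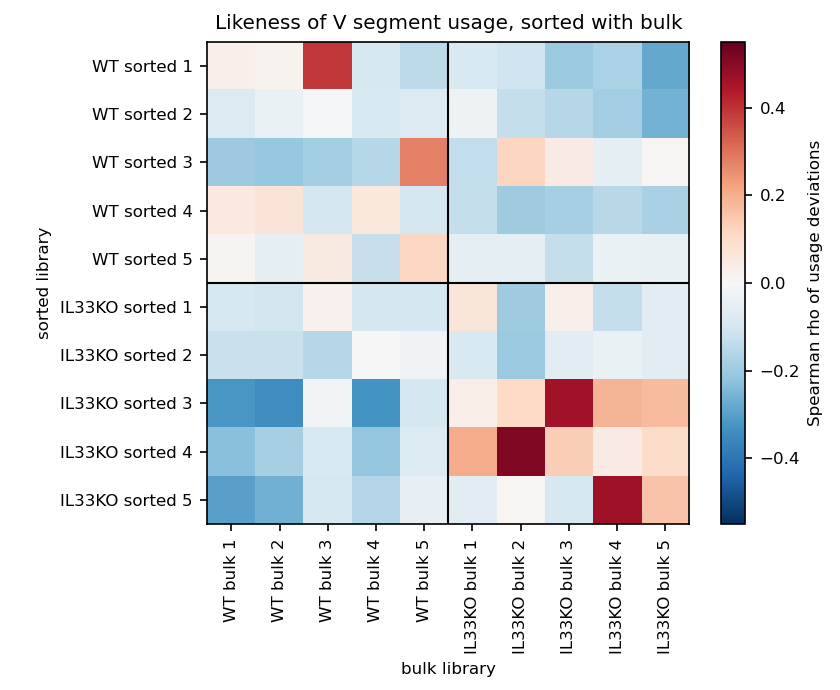
Spearman correlation of usage deviations between each bulk library and each sorted library, across V segments; columns are bulk and rows are sorted libraries, colour gives the correlation and lines part the host genotypes. Every best match (the highest value of a column) has the same host genotype, from 0.055 for WT bulk 1 to 0.511 for IL33KO bulk 2.

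Constant genes were not part of the rule. Of the 12, none passed the test between genotypes in either compartment, while 12 were higher in sorted than in bulk libraries in WT (median log2 difference 5.80) and 11 in IL33KO (4.32). Ighg1, the IgG1 gene, held 61.0 ± 10.2% of heavy constant counts in WT sorted and 38.7 ± 22.9% in IL33KO sorted libraries, and 39.1 ± 6.64% and 23.6 ± 8.63% in bulk (SD, n = 5 each). Igha held 12.5 ± 5.63% and 24.0 ± 11.4% in sorted and 15.0 ± 5.51% and 30.9 ± 8.83% in bulk libraries. The libraries behind the IL33KO sorted spread were 3 and 4, with Ighg1 at 11.5 and 18.1% and Igha at 25.3 and 43.2%. With WT bulk 1, 2 and 4 summed the WT bulk values were 39.6 ± 9.27% for Ighg1 and 14.0 ± 7.43% for Igha (n = 3). These shares of single isotypes were not tested.

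The switched share (IgG, IgA and IgE genes together) was 82.9 ± 13.6% in WT and 75.5 ± 18.0% in IL33KO sorted libraries (two-sided exact permutation test, p = 0.524), and 66.8 ± 1.76% and 69.9 ± 8.46% in bulk (exact permutation p = 0.54). The lambda share of light constant counts was 2.21 ± 0.843% and 2.71 ± 1.15% in sorted libraries (exact permutation p = 0.429) and 3.04 ± 2.41% and 4.71 ± 1.45% in bulk (exact permutation p = 0.222; SD, n = 5 each). With WT bulk 1, 2 and 4 summed the bulk differences were 3.26 percentage points for the switched share (exact permutation p = 0.643) and 0.937 for the lambda share (exact permutation p = 0.571), the latter down from 1.66. Adjusted over the 4 tests all were 0.54, and 5 against 5 libraries cannot go below 0.00794. Heavy V counts per 100 heavy constant counts were 10.2, 11.1, 12.0 and 8.80 in WT sorted, IL33KO sorted, WT bulk and IL33KO bulk, and kappa V counts per 100 Igkc counts 30.2, 33.9, 35.7 and 30.6.

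Markers of antibody-making cells were present in all groups. Of 14 B cell markers 13 were higher in sorted than in bulk libraries in each genotype, and their summed level was 476 to 1070 CPM in WT sorted, 374 to 1690 CPM in IL33KO sorted, 22.1 to 111 CPM in WT bulk and 39.0 to 278 CPM in IL33KO bulk libraries. Of 10 plasma cell markers 8 were higher in sorted libraries and 1 was lower in each genotype; the lower one was Sdc1, the syndecan also made by epithelium (-1.83 in WT, -1.79 in IL33KO, log2). Their summed level was 1240 to 5490, 910 to 5010, 1040 to 1280 and 1050 to 1190 CPM. Between genotypes no marker passed, although all 14 B cell markers had values above 0 in sorted libraries (median log2 change 0.59) and in bulk (0.93). Of the plasma cell markers, 1 of 10 had in sorted libraries (median -0.48), the side on which the V segment median lay there (-0.42). In bulk 5 of the 9 plasma cell markers tested had (median 0.04), where the V segment median was 0.61. No marker of either list was at 0 throughout a group.

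Across the 10 sorted libraries the summed V level ranked with the summed plasma cell markers (Spearman 0.988), more than with B cell markers (0.709) or T cell markers (-0.564). Across the 10 bulk libraries it ranked with pan-leukocyte (0.939), T cell (0.915) and B cell markers (0.891), and at -0.067 with the plasma cell list. That sum is mostly Sdc1 in bulk tumour (873 of 1200 CPM in WT, 845 of 1120 CPM in IL33KO), and the plasma cell genes Jchain and Mzb1 ranked with the V level there at 0.952 and 0.939. Libraries share depth and composition here, so these are descriptions. Markers of lymph node stroma would come with a piece of lymph node or lymphoid aggregate. They summed to a mean of 5.8 CPM (1.76 to 17.0) in WT and 12.9 CPM (6.77 to 22.0) in IL33KO bulk libraries. Their sum ranked with V level at 0.588 in sorted and 0.709 in bulk. In bulk, 3 of the 5 were tested between genotypes and none passed. Acinar markers, the normal pancreas, reached 34900 CPM in IL33KO sorted 3 (589 to 5830 CPM in the other IL33KO sorted libraries) and ranked with V level at 0.43 and 0.212. The part of these tissues in the V level was not tested.

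Among 11355 genes other than immunoglobulin genes, averaging 5 CPM or more, the 5 whose level ranked most like the summed V level over the 20 libraries were Jchain (Spearman 0.992), Mzb1 (0.988), Pou2af1 (0.986), Blnk (0.979) and Cacna1h (0.976). Jchain encodes the joining chain of polymeric IgM and IgA, Mzb1 an endoplasmic reticulum protein of antibody-secreting cells, Pou2af1 a coactivator of octamer factors at immunoglobulin promoters, Blnk an adaptor of B cell receptor signalling and Cacna1h a calcium channel subunit. Within sorted and within bulk libraries the values were 0.988 and 0.952 for Jchain, 0.988 and 0.939 for Mzb1, 0.952 and 0.939 for Pou2af1, 0.988 and 0.842 for Blnk and 0.915 and 0.927 for Cacna1h.

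Genes that act on V segments or with their products were read from the same fits, and none of those lists had a member that passed between genotypes. The octamer factor gene Pou2f2 and its coactivator Pou2af1 were higher in sorted libraries by 2.53 and 5.16 on the log2 scale in WT and by 2.58 and 3.87 in IL33KO, and Pou2f1 was lower in WT (-0.40). All 7 antigen receptor signalling genes and all 5 B cell survival genes were higher in sorted libraries in each genotype. Recombination genes Rag1, Rag2 and Dntt were scarce, at a summed 0.943 to 3.97 CPM in WT sorted and 1.46 to 6.45 CPM in IL33KO sorted libraries, and 2 of 2 tested were higher there. Pigr, the epithelial receptor that carries IgA and IgM across, was lower in sorted libraries (-3.47 and -1.62).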

How the data were processed

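RNA-seq of 20 libraries was analysed, 5 per group, grouped by sample title. The authors deposited a table of raw, unnormalized HTSeq gene counts. They also deposited scaled signal values (counts over size factors, per the file headers), used here only as an alternative. Per the submitters' processing notes, Picard, HTSeq, DESeq and the mm10 build were used. The aligner and strand setting were not given in the sources used here, so antisense and overlapping genes are uncertain. Summary lines (26.1 to 40.5% of a library) stayed out of library sizes and tests. The members and gene lists were chosen with earlier results of these data known.

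Counts were fitted over all genes with edgeR 4.0.16 (R 4.3.3; filterByExpr, TMM, robust quasi-likelihood test, two-sided, Benjamini-Hochberg threshold 0.05), by genotype within 10 libraries and by compartment and interaction over 20. SE is the absolute log2 change over the square root of F. Adjusted p-values measure spread between libraries, which may be partly technical. Shares were compared by exact permutation tests (scipy 1.17.1, Python 3.11.15). Tested on simulated data for the sorted comparison (16514 genes), edgeR recovered 86 of 100 genes changed 2-fold and 98 of 100 changed 4-fold, and called 9 unchanged genes. The changed genes were drawn from all genes averaging 5 CPM or more, each at its own fitted spread. Recovery of V segments was therefore not measured. Alternatives used DESeq2 1.42.0, limma 3.58.1 with sample quality weights, other scalings and filters, member thresholds of 500 and 2000 counts, a replicate block, a B cell score and leaving out each library; summing WT bulk 1, 2 and 4 and the position and family comparisons were added after seeing the data.

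Segments named were the 5 with the highest mean share in the heavy and in the kappa locus, all lambda members, the 3 with the smallest p in each fit (per direction where over 5 passed), the leader of the most concentrated library per group, and the 3 on each side of 1000 counts. Segments named for position, non-overlap or a missing call were chosen after their values were seen. Coordinates and sequences were taken from GENCODE M21 by gene identifier, which matched all 156. Columns of no sample numbered 0. A result for 1 listed gene is not given.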

Additional observations from a re-analysis of the deposited data

Results flagged for a closer look

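A library was singled out where its gap to the nearest of the other 4 of its group was large for the group's range (Dixon's 95% critical value). Of 84 group checks 15 passed. The nominal rate of about 1 in 20 does not apply to this count. Some of the segments checked were named for leading in 1 library, and the checks share libraries and segments. IL33KO sorted 2 had a summed V level of 18936 CPM against 707 to 5000 in its group. Usage stood apart in WT sorted 3, where Ighv1-64 held 27.3% of heavy and Igkv3-2 28.7% of kappa V counts (2.31 to 3.65% and 1.7 to 4.64% in the other libraries), and Ighg3 held 2.78% of heavy constant counts (0.283 to 0.435%).

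WT bulk 5 stood apart by Ighv1-82 (38.7% against 1.1 to 2.03%), by Igkv3-5 (26.0% against 0 to 0.664%), which was its leading kappa segment (leaders of the others held 10.3 to 13.2%), and by Ighg3 (4.22% against 0.328 to 0.934%). WT bulk 3 had an effective number of heavy segments of 27.4 against 5.78 to 8.41, an Igkv1-117 share of 5.28% against 0.955 to 1.98%, and a lambda share of light constant counts of 7.3% against 1.27 to 2.38%. Since WT bulk 1, 2 and 4 differed little from each other in V usage, the spread of that group is narrow in these checks.

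Ighv8-12 held 12.1% in IL33KO sorted 4 (others 1.95 to 3.51%) and 12.9% in IL33KO bulk 2 (others 1.49 to 3.45%), where it was the leading heavy segment at 12.9% against 8.52 to 8.99% for the leaders of the other libraries. Igkv3-5 held 2.07% in IL33KO sorted 5 against 0.457 to 0.822%.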

How the results depend on the processing

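The counts of V segments called changed mainly with the tool. In sorted leukocytes DESeq2 called 4 lower (Igkv4-61, Igkv8-21, Ighv1-54 and Ighv1-69) where edgeR called 0; DESeq2 called 4.42% of all genes there. In bulk tumour DESeq2 called 1 (Ighv1-81, log2 change 3.60, adjusted p 0.0127) and limma voom with sample quality weights 45 (43 higher, 2 lower; 48.4% of members, 19.5% of all genes); that fit weighted WT bulk 1 at 6.09 and WT bulk 5 at 0.218, and gave Igkv19-93 2.04 (adjusted p 0.0361) and Igkv3-5 4.57 (adjusted p 0.0231), each the reverse of its sign in edgeR. For the interaction voom called 2 (Ighv1-50 and Ighv1-69; 18.8% of all genes), and for sorted against bulk in IL33KO 121 against 150. The cause was not tested. Every other setting that gave a value, leaving out a library included, called 0 in these 3 comparisons. With 1 library left out, sorted against bulk called 148 to 156 in WT and 146 to 150 in IL33KO. Requiring 5 CPM in 5 libraries left no member to test in bulk and 104 elsewhere (103 and 102 called).

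With a replicate block the calls were 0, 0 and 0 between genotypes and for the interaction, and 140 and 133 for sorted against bulk. Same-numbered libraries correlated at -0.299 to 0.627 in their deviations over all genes tested. Between genotypes the same number was the best match for WT sorted 2, 3 and 5 and WT bulk 2 and 5 (0.286 to 0.627). Another number was best for the remaining WT libraries. Between compartments the same number was best only for WT sorted 4 (0.237) and IL33KO sorted 3 (0.327). The labels do not say whether the numbers pair libraries. The lambda difference in sorted libraries was -0.977 percentage points (exact permutation p = 0.175) with V in place of constant counts, against 0.508. In bulk the lambda difference in constant counts was 2.73 without WT replicate 3, against 1.66 with it. Its exact permutation p of 0.0159 is the smallest that 5 against 4 libraries can give. The WT libraries left include 1, 2 and 4, whose V usage was nearly the same and which the test counts as separate. The switched share difference in bulk was -0.182 (exact permutation p = 0.937) without IL33KO replicate 2 and reached 5.22 without IL33KO replicate 4; in sorted libraries it went from -7.42 to -0.191 without IL33KO replicate 3 and to -11.9 without IL33KO replicate 2. With 1 library left out the lambda difference ranged from 0.242 to 0.968 in sorted and from 1.12 to 2.73 in bulk libraries, and the nearer heavy share from 10.3 to 13.1 points sorted and 16.5 to 19.8 bulk. For 27 named segments over all alternatives, 2512 values kept direction and call, 21 gained and 16 lost the call, 105 moved and 2 reversed. Depth limits the bulk libraries: 63 members could not be tested there.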

Other observations

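V families were compared after the other values had been seen, with no test. Of 31 heavy and kappa families, 6 (19.4%) had bulk shares that did not overlap between host genotypes, 5 higher and 1 lower in IL33KO. Of single Ighv and Igkv segments with a count, 4.76% did not overlap in bulk. Most families sum over several segments and so hold more counts, and this rate is no background for the family count. The same 6 families did not overlap with WT bulk 1, 2 and 4 summed. Igkv16 has 1 member, Igkv16-104, which is also among the segments without overlap, so the 2 counts are not separate. Ighv5 held 1.04 to 5.64% of heavy V counts in WT and 7.62 to 13.3% in IL33KO bulk libraries. Among kappa families, Igkv1 held 4.45 to 10.7% and 14.7 to 26.0%, Igkv9 0.191 to 2.72% and 2.99 to 8.32%, Igkv16 0.573 to 1.17% and 1.24 to 2.46%, and Igkv17 0.382 to 1.62% and 1.65 to 3.22%. Igkv12 was the lower family, at 9.57 to 15.5% and 5.21 to 8.27%. Families follow the symbols of the count table, so Igkv12 includes Igkv12-47, which GENCODE M21 names Igkv13-85. The share of that segment alone was higher in IL33KO bulk libraries (0.0851 to 0.287% in WT, 0.307 to 0.726% in IL33KO). In sorted libraries 0 of the 31 were without overlap. Igkv1, for example, held 4.62 to 11.4% in WT and 6.2 to 27.9% in IL33KO there.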
